A study of Mus musculus with 16 samples.

Results

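The axoneme is the microtubule core of a motile cilium, and 48 genes that encode its parts were described here in cultured airway epithelium. They were taken by symbol from a list, and all 48 were found among the 49315 gene identifiers of the count table, 2 of them (Dnai1 and Dnai2) through the names Dnaic1 and Dnaic2. The list held 5 outer arm dyneins, 9 inner arm dyneins, 3 docking complex genes, 4 dynein assembly factors, 4 ruler and nexin link genes, 3 radial spoke head genes, 6 central apparatus genes, 7 tektins and microtubule inner proteins and 7 other ciliary genes. The rule names genes and uses no measured value, but the list was chosen with earlier results of these data known.

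RNA sequencing was done on 16 libraries from primary murine tracheal epithelial cell cultures (MTECs), which are grown with air above and medium below so that ciliated and secretory cells form. The cultures came from male (M) and female (F) mice that were wild type (WT) or knockout (KO) for LMAN1, a cargo receptor that carries proteins out of the endoplasmic reticulum. They were left naive or given house dust mite extract (HDM), an inhaled allergen, at 20 µg/ml overnight. Each of the 8 groups (F WT naive, F WT HDM, F KO naive, F KO HDM and the same 4 in males) held 2 libraries labelled as biological replicates. The KO line has a C57BL/6J background and was bred from heterozygotes, with WT littermates as controls. The age of the donor mice and the number of animals behind a culture are not given in the sources used here. The p-values below rest on the spread between the 2 cultures of a group, in an estimate shared by all 8 groups and fitted to the 16 libraries. Wide replicates in any group therefore enter the tests of the other groups too. In bulk RNA fewer ciliated cells and less RNA per ciliated cell cannot be told apart.

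Motile cilia of the airway beat because dynein arms, fixed at regular intervals on the outer microtubule doublets, slide one doublet along the next. Outer arms set the beat frequency and inner arms shape the bend, while nexin links, radial spokes and the central pair of microtubules turn sliding into a controlled stroke. The genes are switched on together late in the formation of multiciliated cells, by the coiled-coil regulators GMNC and MCIDAS and then by FOXJ1 and RFX factors. RFX factors bind a DNA element called the X-box. Loss of many of these genes causes primary ciliary dyskinesia.

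Promoter windows of 250 bases before to 50 bases after the start site were present in the RefSeq tables (build GRCm38.p6) for 37 of the 48 genes. An X-box was searched as the half-site GTTNC, 3 or 4 bases of any kind, and GNAAC, which reads the same on both strands. With 3 bases between the half-sites (GTTNCNNNGNAAC) it was found in 9 of the 37 genes against 1.12% of 27025 genes with a promoter, and with 4 bases (GTTNCNNNNGNAAC) in 7 of the 37 against 1.19%. One or the other was present in 14 of the 37, which is 37.8%, against 2.29% of all genes. The shorter motif GTTGCC, which overlaps many X-boxes, was found on either strand in 17 of 37 genes against 14.1% of all genes. The forkhead core GTAAACA, the kind of element FOXJ1 binds, was found on either strand in 2 of 37 genes (Ak7 and Cfap43) against 4.05%. These are matches of letters and not measured binding sites.

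The matches began between 103 bases before the start site and the start site itself, with a median of 29 bases before it. The windows below carry the X-box in capitals with 20 bases on each side, and they were chosen to show dynein, tektin and central apparatus genes with different behaviour under HDM. Dnah9 and Dnai2 fell in F WT HDM, whereas Dnah7b and Tekt2 did not, and Dnah7a was hardly counted at all.
Dnah9, chr11:66168601-66168653, minus strand: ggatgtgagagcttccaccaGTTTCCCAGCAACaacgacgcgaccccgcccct
Dnai1, chr4:41569755-41569807, plus strand: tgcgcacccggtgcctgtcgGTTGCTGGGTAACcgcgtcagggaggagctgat
Dnai2, chr11:114727366-114727418, plus strand: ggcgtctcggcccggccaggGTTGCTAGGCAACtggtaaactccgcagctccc
Dnah7a, chr1:53706809-53706861, minus strand: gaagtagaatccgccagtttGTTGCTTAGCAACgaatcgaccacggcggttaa
Dnah7b, chr1:46066809-46066861, plus strand: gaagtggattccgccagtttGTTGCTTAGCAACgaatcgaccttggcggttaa
Tekt2, chr4:126325685-126325737, minus strand: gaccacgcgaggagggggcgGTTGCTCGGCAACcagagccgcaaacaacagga
Tekt4, chr17:25471534-25471586, plus strand: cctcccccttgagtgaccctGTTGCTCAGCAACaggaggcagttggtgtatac
Hydin, chr8:110266936-110266989, plus strand: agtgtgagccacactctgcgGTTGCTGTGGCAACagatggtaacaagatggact
Pifo, chr3:106001484-106001537, minus strand: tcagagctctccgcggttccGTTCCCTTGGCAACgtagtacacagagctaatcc
The windows of the paralogs Dnah7a and Dnah7b were identical at 49 of 53 bases, the X-box included. Of the genes with an X-box that were tested, 7 of 12 were called lower in F WT HDM (median log2 fold change -3.5), against 19 of 23 without one (median -2.93), beside 22.4% of all tested genes that were called lower. The difference between genes with and without an X-box was not tested.

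Levels are given as CPM (the library-size-scaled counts of edgeR, with TMM factors). Library totals ranged from 21860698 to 43442188 counts. Lman1, the targeted gene, stood at 101 to 144 CPM in the 8 WT libraries. In the libraries labelled KO it was 12.8 and 12.8 in F KO naive, 14.2 and 63.4 in M KO naive, 66.6 and 78.1 in F KO HDM and 65.0 and 66.0 in M KO HDM, so that KO stands for the label throughout. The share of mitochondrial counts was 2.04% and 2.5% in F WT HDM and at most 1.52% elsewhere. Whether either bears on the axoneme genes was not tested.

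In the naive cultures the axoneme genes were weakly expressed. Their summed level in the 8 naive libraries ran from 89.9 to 251 CPM, 42 of the 48 stayed under 10 CPM in every library, and 3 stayed under 1 CPM in every library. The other 6 were Cfap43, Tppp3, Rsph1, Rsph9, Cfap126 and Dnah5. Per kilobase of exon, the radial spoke head gene Rsph1 led with a naive mean of 8.93 CPM per kb, followed by Tppp3, a tubulin polymerisation promoting protein, at 7.44 and Rsph9 at 7.27. The ranges of these 3 over the 8 naive libraries overlapped, at 4.93 to 12.3, 1.85 to 12.7 and 5.86 to 8.87 CPM per kb. Cfap126, an inner microtubule protein, followed at 5.10 CPM per kb. The long dynein heavy chains lay lower, from 0.438 CPM per kb for Dnah5 to 0.0441 for Dnah10 and 0.00552 for Dnah7a, the lowest of the 48 genes.

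The summed level separated the female groups and not the male ones. It was 151 and 210 CPM in F WT naive against 49.5 and 56.9 in F WT HDM, a ratio of means of 0.295. Of these sums Cfap43 alone held 17.3 and 17.8 CPM in naive and 15.6 and 20.7 under HDM. The median over the 48 genes went from 2.052 and 3.315 CPM to 0.25 and 0.189 CPM. In F KO the summed level was 195 and 204 CPM in naive cultures against 66.9 and 86.4 under HDM, a ratio of 0.384. In M WT the naive libraries held 222 and 89.9 CPM and the HDM libraries 183 and 110 CPM, with overlapping groups and a ratio of 0.940. In M KO the naive libraries held 251 and 91.3 CPM and the HDM libraries 89.4 and 99.6 CPM, a ratio of 0.553 in which the second naive library already lay at the HDM level.

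Replicates stood apart in 3 of the 4 male groups and also in F KO HDM and F WT naive. In F KO HDM 41 of 48 genes were higher in replicate 2, with a median ratio of replicate 1 to replicate 2 of 0.586. In F WT naive 45 of 48 were higher in replicate 2 (median ratio 0.662). All 48 genes were higher in M WT naive replicate 1 than in replicate 2, with a median ratio of 3.11 over the 47 genes counted in both. In M KO naive 47 of 48 were higher in replicate 1 (median ratio 4.57), and in M WT HDM 46 of 48 were (median ratio 1.72). Summed markers of proliferating cells moved with this, at 406 to 491 CPM in M WT naive replicate 1, M WT HDM replicate 1 and M KO naive replicate 1 and at 180 to 264 CPM in the other 5 male libraries. Summed fibroblast markers moved the other way, at 3.53 to 5.76 CPM in those 3 libraries and at 14.5 to 172 CPM in the other 5. So did smooth muscle markers (12.4 to 18.9 against 30.7 to 103 CPM) and tuft cell markers (53.4 to 70.1 against 84.1 to 121 CPM). Sums of the remaining marker lists overlapped. In females, summed proliferating cell markers went from 313 and 333 CPM in F KO naive to 429 and 413 in F KO HDM. In F WT they went from 306 and 353 CPM in naive to 300 and 157 under HDM. The part of these cells in the levels was not tested.

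Among the KO libraries, the axoneme genes were lower where Lman1 was higher. The 3 KO libraries with Lman1 under 15 CPM, both of F KO naive and the first of M KO naive, had summed axoneme levels of 195 to 251 CPM. The 5 with Lman1 at 63.4 to 78.1 CPM had 66.9 to 99.6 CPM. In F KO all low-Lman1 libraries were naive and all others had HDM, so that HDM and Lman1 level cannot be told apart there. Their part in the result was not tested.

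**Figure D1:**
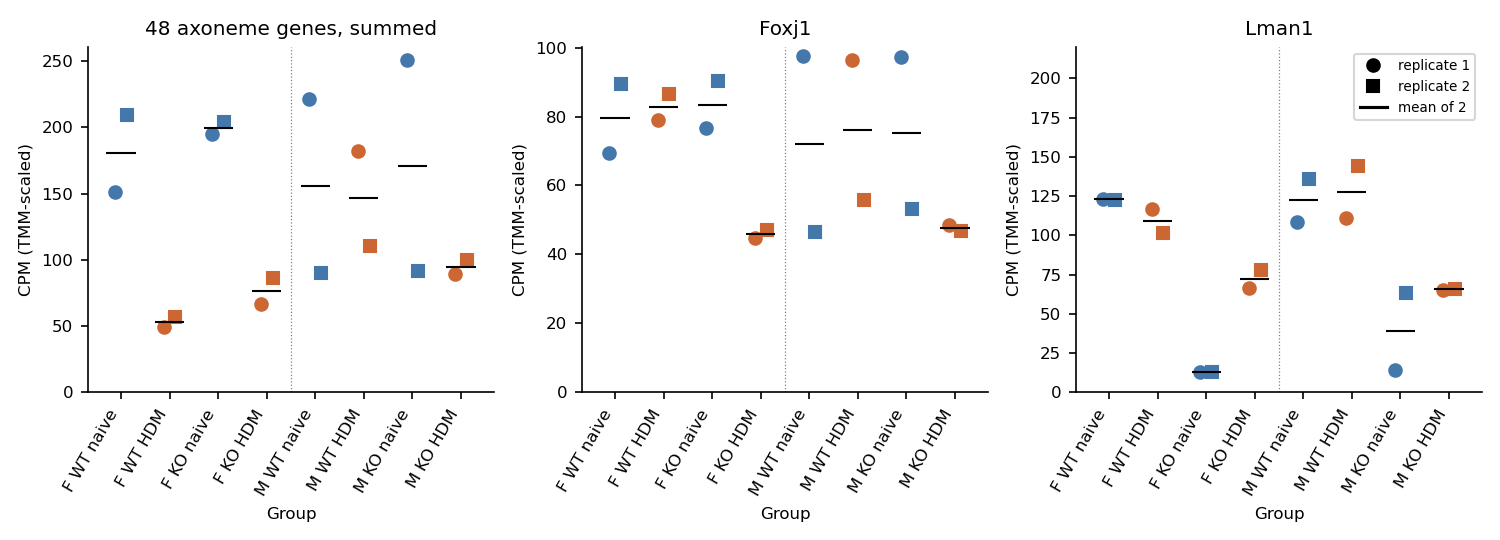
Each point is 1 library, with its TMM-scaled CPM on the vertical axis and the 8 groups on the horizontal axis (blue, naive, orange, HDM, circles, replicate 1, squares, replicate 2, bars, mean of 2). The left panel shows the summed axoneme genes, which fell to 49.5 and 56.9 CPM in F WT HDM, the middle panel Foxj1, which stayed at 79.1 and 86.6 CPM there, and the right panel Lman1.

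Of the 4 HDM responses, that of F WT cultures called the most axoneme genes. Of the 46 axoneme genes that passed the filter on low counts, 35 fell and 0 rose at an adjusted p under 0.05 in edgeR's quasi-likelihood test, beside 22.4% of all 15993 tested genes that fell. The median log2 fold change of the 46 was -3.30, against -0.02 over all genes, and it was also -3.30 with the 2 genes that had no counts under HDM set at their bound. In 43 of the 48 genes both HDM libraries lay below both naive libraries. In 25 of the 48 the F WT HDM pair lay below the other 14 libraries of the series. The share of all tested genes with such a separation is given for neither count. Leaving out any 1 of the F WT libraries lowered the number called (share over all genes not given). The median log2 fold change then lay between -3.495 and -2.904.

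The 2 genes with the highest mean CPM in each of 9 roles are given with every library, 18 in all. Both HDM libraries lay below both naive libraries in 16 of the 18 in F WT (all but Cfap43 and Dnah7b) and in 17 of the 18 in F KO (all but Cfap43). This was so for 0 of the 18 in M WT and for 2 of the 18, Dnaaf3 and Rsph9, in M KO. The share of all tested genes with such a separation is not given.

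All 3 genes of the radial spoke heads, which contact the central pair, fell. Rsph9 stood at 11.8 and 10.6 CPM in F WT naive and 3.54 and 4.5 in F WT HDM, 12.4 and 9.51 in F KO naive and 4.56 and 4.58 in F KO HDM. In males it stood at 11.7 and 9.39 CPM in M WT naive, 10.6 and 10.6 in M WT HDM, 14.2 and 13.5 in M KO naive and 11.2 and 12.2 in M KO HDM. The 4 HDM libraries of the females therefore lay below the other 12, and the log2 fold change in F WT was -1.48 ± 0.17 (SE, adjusted p = 4.46e-05).

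Rsph1 stood at 11.5 and 13.7 CPM in F WT naive and 3.04 and 3.46 in F WT HDM, 13.8 and 14.1 in F KO naive and 4.28 and 5.48 in F KO HDM. In males it stood at 13.7 and 6.76 CPM in M WT naive, 13.3 and 8.19 in M WT HDM, 16.9 and 7.59 in M KO naive and 7.42 and 7.74 in M KO HDM, where replicate 1 was above replicate 2 except in M KO HDM. The F WT change of Rsph1 was -1.96 ± 0.40 (SE, adjusted p = 0.00235), and that of Rsph4a was -2.99 ± 0.80 (SE, adjusted p = 0.0105).

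All 5 outer arm dyneins had a negative change in F WT, and 2 of them were called lower. Differences between these genes were not tested. Dnai2, an intermediate chain, stood at 4.58 and 7.44 CPM in F WT naive and 0.499 and 0.474 in F WT HDM, 7.12 and 7.03 in F KO naive and 0.767 and 1.61 in F KO HDM. In males Dnai2 stood at 7.26 and 1.85 CPM in M WT naive, 5.23 and 2.29 in M WT HDM, 9.24 and 1.45 in M KO naive and 1.64 and 2.17 in M KO HDM. Its F WT change was -3.62 ± 0.93 (SE, adjusted p = 0.00847), with no overlap between naive and HDM libraries in either female genotype, and Dnah9, a distal heavy chain, fell by 4.36 on the log2 scale (adjusted p = 0.00342, edgeR).

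Dnah5, the heavy chain most often mutated in primary ciliary dyskinesia, stood at 4.94 and 8.25 CPM in F WT naive and 3.87 and 2.79 in F WT HDM, 8.01 and 7.74 in F KO naive and 1.53 and 3.65 in F KO HDM. In males Dnah5 stood at 11.4 and 2.35 CPM in M WT naive, 8.10 and 3.86 in M WT HDM, 10.1 and 1.94 in M KO naive and 1.43 and 2.17 in M KO HDM. Its F WT libraries did not overlap, yet the change of -0.99 ± 0.79 (SE, adjusted p = 0.337) did not pass the test. Dnah11, a proximal heavy chain, and the intermediate chain Dnai1 were not called either, at -0.28 ± 0.55 and -3.08 ± 1.27 (SE). For Dnah11 the F WT HDM libraries held 0.583 and 1.04 CPM against 0.872 and 1.08 in naive, and 4.44% of its exon bases are shared with Cdca7l on the opposite strand.

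Of the 8 tested inner arm dyneins, 6 fell. Dnali1, a light chain, stood at 5.27 and 7.6 CPM in F WT naive and 0.541 and 0.568 in F WT HDM, 8.23 and 7.74 in F KO naive and 1.74 and 2.15 in F KO HDM. In males it stood at 6.93 and 3.03 CPM in M WT naive, 5.04 and 3.12 in M WT HDM, 7.83 and 2.87 in M KO naive and 2.57 and 3.13 in M KO HDM. The F WT change was -3.53 ± 0.56 (SE, adjusted p = 0.000411), the most precise of the dyneins that fell.

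Dnah12 went from 2.40 and 3.64 CPM in F WT naive to 0.167 and 0 in F WT HDM, a change of -5.05 ± 0.85 (SE, adjusted p = 0.000627). Dnah3 had 49 counts over both F WT naive libraries and 0 over both HDM libraries, at least 10.2-fold lower against a floor of 3 counts over the group. Dnah1, Dnah2 and Dnah6, further heavy chains, fell by 2.93, 3.31 and 4.44 on the log2 scale. Dnah10 was not called at -1.46 ± 0.73 (SE).

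Dnah7b spanned a narrower range. It stood at 4.40 and 4.72 CPM in F WT naive and 4.41 and 3.93 in F WT HDM, 4.96 and 3.41 in F KO naive and 2.78 and 3.40 in F KO HDM. In males it stood at 5.24 and 3.70 CPM in M WT naive, 4.13 and 4.82 in M WT HDM, 3.83 and 4.62 in M KO naive and 6.03 and 5.78 in M KO HDM, and all 16 libraries lay between 2.78 and 6.03 CPM. Its F WT change was -0.13 ± 0.23 (SE, adjusted p = 0.682). Its paralog Dnah7a failed the filter, with 0 to 6 counts per library and 0.17 CPM at most. How reads that match both paralogs were counted is not stated, so that the split between them is uncertain.

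The docking complex, which seats outer arms on the doublet, fell at all 3 genes. Ccdc114 stood at 4.5 and 4.56 CPM in F WT naive and 1.79 and 1.14 in F WT HDM, 4.36 and 4.37 in F KO naive and 1.90 and 1.25 in F KO HDM. In males Ccdc114 stood at 5.67 and 3.10 CPM in M WT naive, 3.78 and 2.72 in M WT HDM, 4.96 and 3.71 in M KO naive and 3.89 and 4.03 in M KO HDM. The change in F WT was -1.62 ± 0.33 (SE, adjusted p = 0.00226).

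Ccdc151 stood at 4.11 and 6.14 CPM in F WT naive and 0.25 and 0.521 in F WT HDM, 5.47 and 6.20 in F KO naive and 0.605 and 1.5 in F KO HDM. In males Ccdc151 stood at 5.24 and 1.55 CPM in M WT naive, 4.19 and 2.47 in M WT HDM, 7.51 and 1.67 in M KO naive and 1.28 and 2.20 in M KO HDM. Its change in F WT was -3.75 ± 0.86 (SE, adjusted p = 0.0045), and Armc4 went from 61 counts over both naive libraries to 2 over both HDM libraries, a scaled ratio of 19.1 (95% exact counting interval 5.07 to 161).

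All 4 assembly factors, which fold and load dynein in the cytoplasm, fell. Dnaaf3 stood at 6.36 and 8.29 CPM in F WT naive and 2.04 and 3.13 in F WT HDM, 7.12 and 7.53 in F KO naive and 3.35 and 4.26 in F KO HDM. In males Dnaaf3 stood at 7.33 and 3.20 CPM in M WT naive, 6.33 and 5.16 in M WT HDM, 8.24 and 5.57 in M KO naive and 3.89 and 4.20 in M KO HDM. It kept more of its level than the other 3, with a change of -1.51 ± 0.36 (SE, adjusted p = 0.0055).

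Zmynd10 stood at 3.74 and 5.42 CPM in F WT naive and 0.25 and 0.142 in F WT HDM, 5.67 and 5.67 in F KO naive and 0.202 and 1.29 in F KO HDM. In males Zmynd10 stood at 5.07 and 1.61 CPM in M WT naive, 4.85 and 1.67 in M WT HDM, 6.86 and 1.5 in M KO naive and 1.5 and 1.51 in M KO HDM. In F WT it changed by -4.5 ± 1.05 (SE, adjusted p = 0.00505) and that of Dnaaf1 was -4.31 ± 1.02 (SE, adjusted p = 0.00531), although 20.7% of the exon bases of Dnaaf1 are shared with Taf1c on the opposite strand. Lrrc6 went from 93 to 2 counts over the F WT pairs, a scaled ratio of 29.2 (95% exact counting interval 7.85 to 244).

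Ccdc39 and Ccdc40 form the ruler that spaces inner arms and spokes, and Drc1 builds the nexin link. All 4 genes of this class fell in F WT HDM. Ccdc40 stood at 5.09 and 8.77 CPM in F WT naive and 0.749 and 0.663 in F WT HDM, 8.15 and 8.98 in F KO naive and 1.61 and 2.58 in F KO HDM. In males Ccdc40 stood at 8.78 and 2.15 CPM in M WT naive, 6.96 and 3.43 in M WT HDM, 9.41 and 2.27 in M KO naive and 2.67 and 2.10 in M KO HDM. The F WT change was -3.29 ± 0.80 (SE, adjusted p = 0.00608), and Drc1 fell by 4.34 on the log2 scale (adjusted p = 0.00338, edgeR).

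Its partner Ccdc39 stood at 2.94 and 3.98 CPM in F WT naive and 1.33 and 1.04 in F WT HDM, 3.22 and 3.5 in F KO naive and 0.968 and 2.00 in F KO HDM. In males Ccdc39 stood at 3.65 and 1.82 CPM in M WT naive, 3.06 and 1.89 in M WT HDM, 4.69 and 1.42 in M KO naive and 1.78 and 2.37 in M KO HDM. The F WT change was smaller, at -1.54 ± 0.55 (SE, adjusted p = 0.0412), and 16.9% of its exon bases are shared with Ttc14 on the opposite strand, which held 21.8 CPM in F WT naive and 27.9 CPM in F WT HDM. Ccdc113 went from 135 to 2 counts over the F WT pairs, a scaled ratio of 42.3 (95% exact counting interval 11.5 to 353).

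Of the central apparatus, 4 of 5 tested genes fell. Spag6l stood at 2.94 and 4.27 CPM in F WT naive and 0.291 and 0.710 in F WT HDM, 3.90 and 3.81 in F KO naive and 0.646 and 1.11 in F KO HDM. In males Spag6l stood at 3.45 and 1.04 CPM in M WT naive, 3.06 and 1.39 in M WT HDM, 4.62 and 1.20 in M KO naive and 0.856 and 1.45 in M KO HDM. The change in F WT was -2.87 ± 0.78 (SE, adjusted p = 0.0112).

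Cfap54 stood at 1.34 and 2.11 CPM in F WT naive and 0.416 and 0.474 in F WT HDM, 1.97 and 2.35 in F KO naive and 0.605 and 0.895 in F KO HDM. In males Cfap54 stood at 3.28 and 0.875 CPM in M WT naive, 1.92 and 1.02 in M WT HDM, 2.24 and 0.628 in M KO naive and 0.357 and 0.654 in M KO HDM. In F WT the change was -1.96 ± 0.73 (SE, adjusted p = 0.0474), near the threshold. Spef2 fell by 2.08 on the log2 scale, and Spag17 went from 57 to 2 counts over the F WT pairs, a scaled ratio of 17.9 (95% exact counting interval 4.72 to 151).

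Hydin, the giant protein of a central pair projection, was not called at -3.39 ± 1.46 (SE, adjusted p = 0.0809), although its HDM pair of 0.208 and 0.0474 CPM lay below its naive pair of 1.05 and 1.75. Its male replicates differed more, at 2.45 and 0.135 CPM in M WT naive and 1.86 and 0.109 in M KO naive. Spag16 failed the filter, with 0.22 CPM at most and 12 counts over F WT naive against 1 over F WT HDM.

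Of the 7 tektins and microtubule inner proteins, which lie inside the doublets, 5 fell. Cfap126 stood at 7.67 and 9.91 CPM in F WT naive and 2.41 and 2.32 in F WT HDM, 8.83 and 9.51 in F KO naive and 4.00 and 3.76 in F KO HDM. In males Cfap126 stood at 11.5 and 5.82 CPM in M WT naive, 8.85 and 6.06 in M WT HDM, 11.6 and 7.51 in M KO naive and 8.06 and 7.26 in M KO HDM. In F WT the change was -1.89 ± 0.33 (SE, adjusted p = 0.000756).

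Tekt1 stood at 2.73 and 4.34 CPM in F WT naive and 0.0832 and 0.0947 in F WT HDM, 4.05 and 4.58 in F KO naive and 0.282 and 0.824 in F KO HDM. In males Tekt1 stood at 4.61 and 1.48 CPM in M WT naive, 2.55 and 2.01 in M WT HDM, 6.34 and 0.847 in M KO naive and 0.785 and 1.51 in M KO HDM. The F WT change of Tekt1 was -5.26 ± 1.15 (SE, adjusted p = 0.00331). Tekt4 went from 239 to 2 counts over the F WT pairs, a scaled ratio of 74.9 (95% exact counting interval 20.5 to 622). Cfap52 and Pifo, a protein first described in mouse node cilia, fell by 3.34 and 3.14 on the log2 scale.

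Tekt2 did not follow the other tektins. It stood at 1.05 and 1.66 CPM in F WT naive and 1.54 and 1.42 in F WT HDM, 1.28 and 1.76 in F KO naive and 1.45 and 1.32 in F KO HDM, and the F WT groups overlapped. In males Tekt2 stood at 2.22 and 0.774 CPM in M WT naive, 1.76 and 1.36 in M WT HDM, 2.00 and 1.04 in M KO naive and 0.999 and 0.791 in M KO HDM. Its F WT change was 0.11 ± 0.46 (SE, adjusted p = 0.871). Cfap53 was under 1 CPM in every library and was not called (-1.75 ± 1.03 (SE, adjusted p = 0.194)).

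Among the other ciliary genes 4 of 7 fell. Cfap43, a protein of the tether beneath the inner arms, had the highest mean CPM of the 48 genes over the 16 libraries and the smallest ratio of highest to lowest library among them. It stood at 17.3 and 17.8 CPM in F WT naive and 15.6 and 20.7 in F WT HDM, 16.2 and 18.1 in F KO naive and 16.3 and 16.2 in F KO HDM. In males it stood at 17.7 and 14.0 CPM in M WT naive, 17.8 and 13.6 in M WT HDM, 15.9 and 13.6 in M KO naive and 15.5 and 14.2 in M KO HDM. In F WT it changed by 0.05 ± 0.17 (SE, adjusted p = 0.846), whereas Cfap44, its partner in the same tether complex, fell by 4.67 on the log2 scale (adjusted p = 0.0109, edgeR).

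Tppp3 stood at 9.34 and 18.7 CPM in F WT naive and 1.96 and 4.21 in F WT HDM, 14.6 and 19.9 in F KO naive and 7.87 and 8.59 in F KO HDM. In males Tppp3 stood at 16.2 and 4.27 CPM in M WT naive, 16.4 and 5.10 in M WT HDM, 23.6 and 3.42 in M KO naive and 2.92 and 3.79 in M KO HDM. Its F WT groups did not overlap, but the change of -2.20 ± 0.89 (SE, adjusted p = 0.0643) missed the threshold. Rp1, a doublecortin family protein, had 131 counts over F WT naive and 0 over F WT HDM, at least 27.4-fold lower. Cfap65 went from 213 to 2 counts, a scaled ratio of 66.8 (95% exact counting interval 18.3 to 555). The adenylate kinase Ak7 fell by 3.63 on the log2 scale, and Ak9 was not called at -1.43 ± 0.74 (SE).

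**Figure D2:**
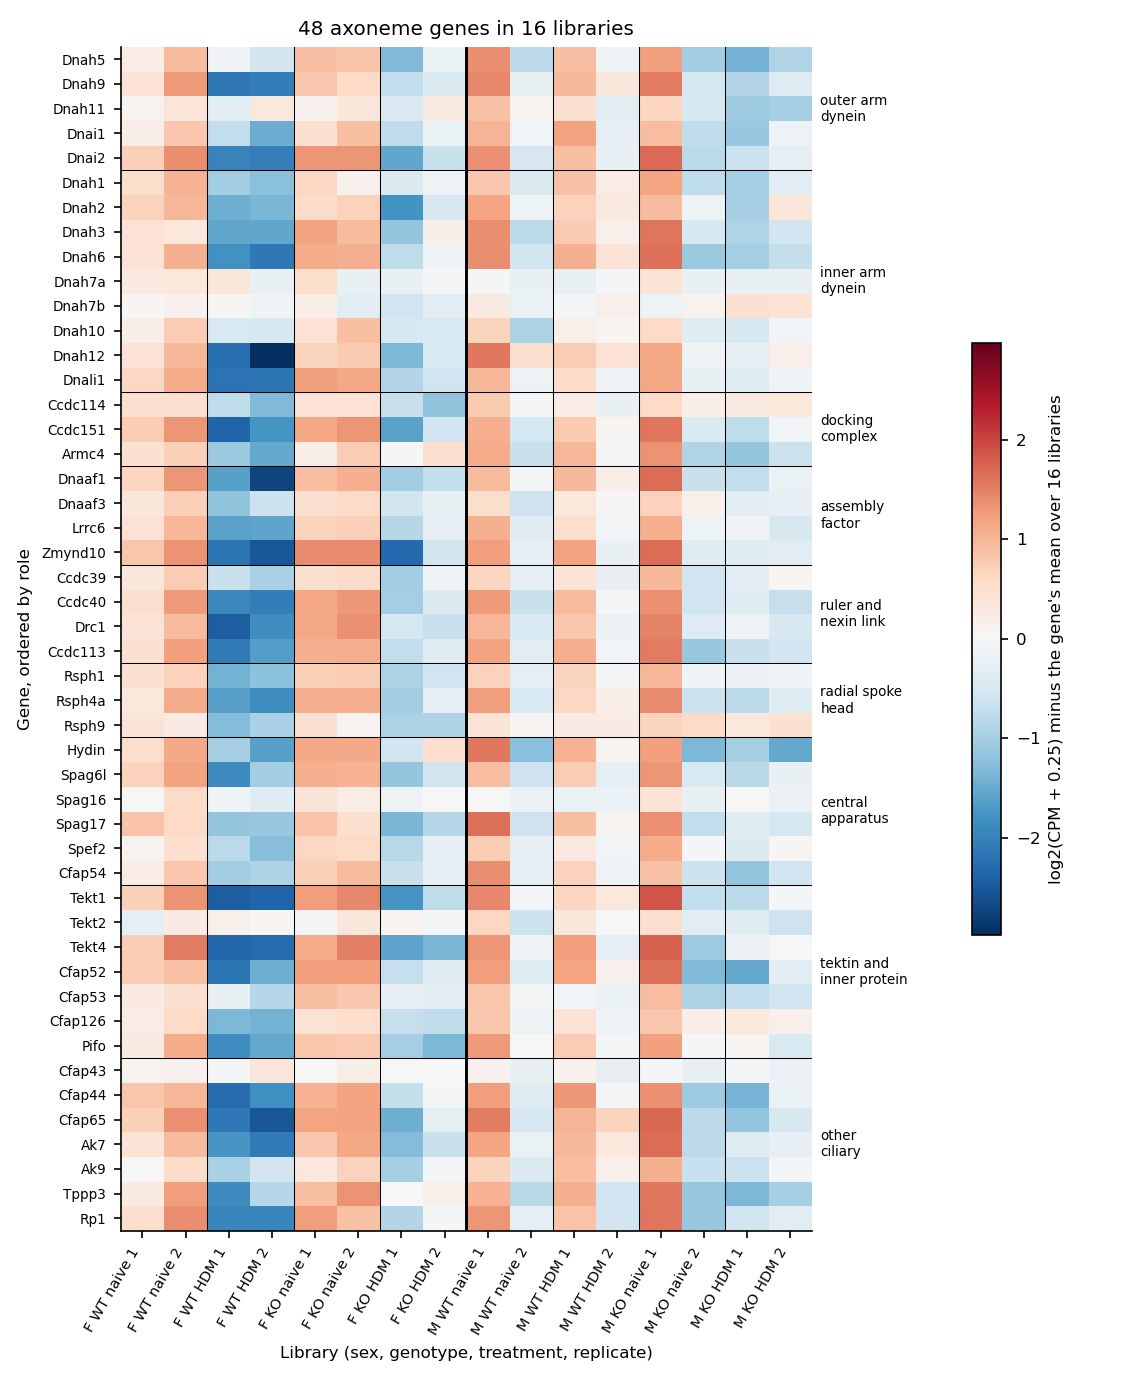
Rows are the 48 genes by role and columns the 16 libraries, and colour gives log2(CPM + 0.25) minus the gene's mean over the 16 libraries. The F WT HDM columns are the bluest across roles, and replicate 1 of M WT naive, M WT HDM and M KO naive is red where replicate 2 is pale or blue. Cfap43, Dnah7b and Tekt2 are pale throughout. Dnah7a and Spag16 are pale too, but they lay below the added 0.25 CPM in every library, so that their colour can show little change.

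Markers of other cells moved in the same comparison. In F WT HDM, 9 of 10 club cell, 6 of 7 tested goblet cell and 7 of 10 basal cell markers fell, beside 22.4% of all tested genes. Of 10 fibroblast markers 3 rose, and the share of all genes that rose is not given. Summed club cell markers went from 25160 and 19340 CPM to 5084 and 4118 CPM. Summed basal cell markers went from 10710 and 11650 CPM to 4525 and 2418 CPM, and summed goblet cell markers from 172 and 148 CPM to 6.53 and 11.6 CPM. The part of these cells in the axoneme levels was not tested.

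Summed fibroblast markers were 30.6 and 591 CPM in F WT naive and 53.7 and 631 CPM in F WT HDM, so that replicate 2 was high in both. Between the replicate 1 libraries, which had few such counts, the summed axoneme level under HDM was 0.327 of the naive level, and between the replicate 2 libraries it was 0.272. An alternative chosen after the data were seen left out both replicate 2 libraries, so that 1 library remained in each of the 2 groups. The median log2 fold change was then -2.95.

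In F KO cultures 7 of the 46 genes fell under HDM and 0 rose, beside 5.77% of all tested genes that fell. They were Rsph9, Rsph1, Cfap126, Ccdc114, Dnali1, Pifo and Tekt4. The median log2 fold change was -1.73 against -0.005 over all genes. HDM and naive libraries did not overlap in 43 of 48 genes (share over all genes not given). Rsph9 changed by -1.26 ± 0.17 (SE, adjusted p = 0.00119) and Cfap126 by -1.24 ± 0.31 (SE, adjusted p = 0.027). Tekt4, at 2.91 and 3.84 CPM in naive and 0.242 and 0.322 under HDM, changed by -3.55 ± 1.01 (SE, adjusted p = 0.0457). The number called hung on the fit, with 40 of 48 called with no filter on low counts, 19 lower by DESeq2 and 38 lower when only these 4 libraries were fitted. The share of all genes called in these fits is not given, so that the counts are not read as particular to the axoneme genes. With any 1 of the 4 libraries left out, fewer genes were called than in the main fit. The median log2 fold change then lay between -2.197 and -1.365.

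Of the 35 genes that fell in F WT, 28 were not called in F KO, and the difference between these responses was tested directly. In that test 0 of 46 genes were called by edgeR, beside 11.2% of all tested genes called in either direction, with 3 higher at an unadjusted p under 0.05 and 2 higher by DESeq2. The median difference (KO minus WT) was 1.21 on the log2 scale. With no filter on low counts 20 of 48 genes were called (share over all genes not given).

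In M WT cultures 0 of 46 genes were called under HDM by edgeR and 0 by DESeq2, 0 had an unadjusted p under 0.05, and the share called among all tested genes was 0%. The median log2 fold change was -0.07 (1.00 without M WT naive replicate 1), and the lowest and highest were -1.03 (Cfap53) and 0.40 (Ak9). In M KO cultures 0 of 46 were called by edgeR and 0 by DESeq2, beside 0% of all genes, with 6 lower at an unadjusted p under 0.05. With no filter on low counts, 29 of 48 were called in M KO (share over all genes not given). The M KO median of -1.38 rested on M KO naive replicate 1, since it was 0.08 without that library and -2.14 without replicate 2.

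**Figure D3:**
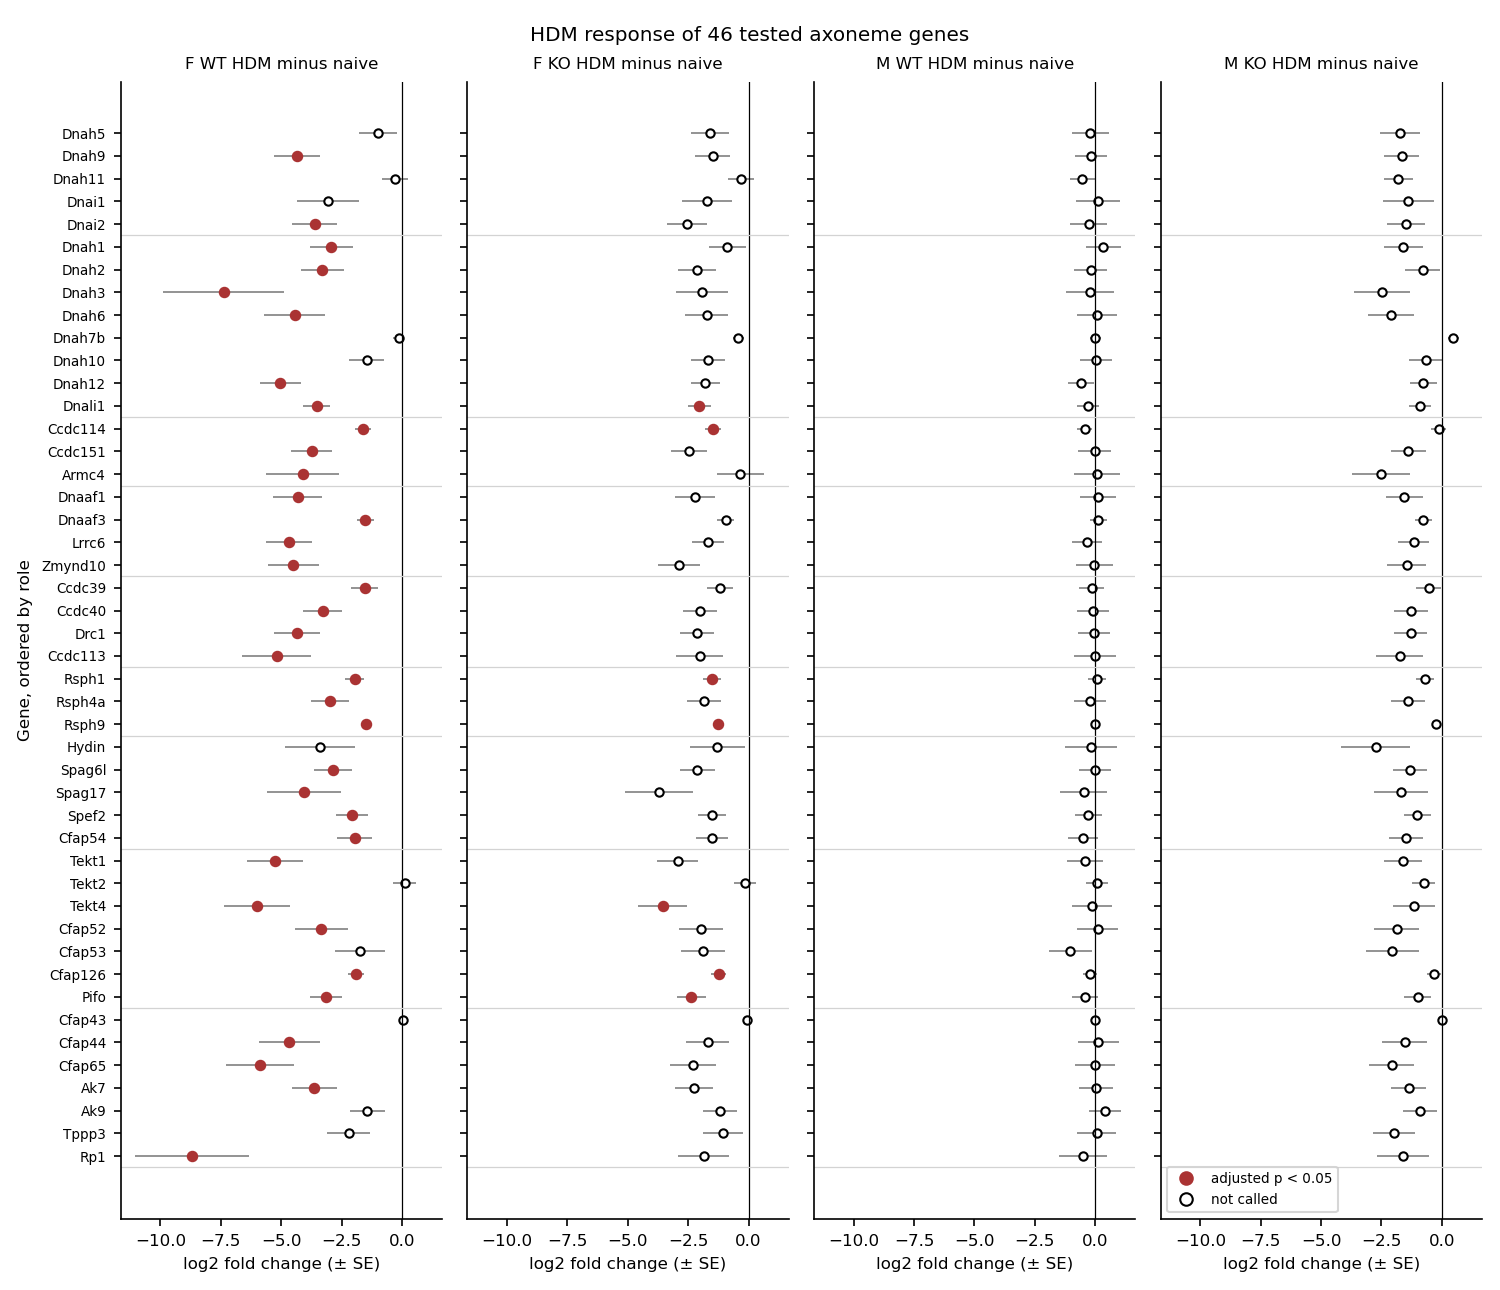
Each panel gives the log2 fold change (HDM minus naive, horizontal axis) of the 46 tested genes by role, with bars of 1 SE and filled points at an adjusted p under 0.05. In F WT 35 points are filled, in F KO 7 and in the male panels 0. The points of Rp1 and Dnah3 in F WT come from groups with 0 counts and have no fixed size.

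The sexes were also compared within each treatment, and the comparison under HDM uses the same F WT HDM libraries as the HDM response above. In WT HDM cultures 32 of 46 genes were higher in males, beside 21.3% of all tested genes that were higher, and 0 were lower. The median log2 difference (M minus F) was 2.89 against 0.02 over all genes. The groups did not overlap in 41 of 48 genes (share over all genes not given). Rsph9, at 10.6 and 10.6 CPM in males and 3.54 and 4.5 in females, differed by 1.4 ± 0.17 (SE, adjusted p = 6.91e-05). Without F WT HDM replicate 1, F WT HDM replicate 2 or M WT HDM replicate 1 fewer genes were called (share over all genes not given). With any 1 library left out the median log2 difference lay between 2.327 and 3.24. In naive WT cultures 0 of 46 genes differed between sexes in edgeR, beside 0.1% of all genes, with 0 at an unadjusted p under 0.05 and 0 by DESeq2, and the median was -0.16.

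The interaction of sex and HDM in WT called 20 of 46 genes, all with a more negative response in females, beside 12.8% of all tested genes. The median of the difference (F minus M) was -3.22 on the log2 scale. Rsph9 had a difference of -1.49 ± 0.23 (SE, adjusted p = 0.00103), Dnali1 of -3.25 ± 0.72 (SE, adjusted p = 0.00739) and Dnah12 of -4.46 ± 1.05 (SE, adjusted p = 0.00996). The 20 held all 4 assembly factors, 3 of 4 ruler and nexin link genes and none of the 5 tested central apparatus genes. All 5 of the latter also had a more negative response in females (median -2.85, range -3.582 to -1.465), and the roles were not compared by a test. With no filter 39 of 48 genes were called (share over all genes not given). The number called moved with single libraries (share over all genes not given). It fell without any 1 of the F WT libraries, M WT HDM replicate 1 or M WT naive replicate 2. Without M WT naive replicate 1 it rose. The median difference lay between -4.226 and -2.584 in these fits.

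In KO HDM cultures 4 genes were higher in males, beside 12.9% of all tested genes, and 0 were lower. These were Rsph9 (1.36 ± 0.17 (SE, adjusted p = 0.000251)), Dnah7b (0.93, adjusted p = 0.0122), Ccdc114 (1.33, adjusted p = 0.0124) and Cfap126 (0.98, adjusted p = 0.0388), all in edgeR. With no filter 14 of 48 were called (share over all genes not given). With any 1 of the 4 libraries left out, fewer genes were called than in the main fit. The median log2 difference (M minus F) then lay between -0.022 and 0.75. In KO naive cultures 0 of 46 differed between sexes in edgeR, beside 0.188% of all genes, with 0 at an unadjusted p under 0.05 and 0 by DESeq2. The interaction of sex and HDM in KO called Rsph9 alone, at -1.02 ± 0.23 (SE, adjusted p = 0.0344), beside 1.77% of all genes, and it was not called without either F KO HDM library, F KO naive replicate 1 or any of the 4 M KO libraries. With no filter 8 of 48 were called (share over all genes not given).

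Of the 4 genotype comparisons, only that of F HDM cultures called axoneme genes. There 2 of 46 genes, Dnali1 (1.80 ± 0.57 (SE, adjusted p = 0.0357)) and Dnah12 (3.23 ± 0.93 (SE, adjusted p = 0.0236)), were higher in KO, beside 14.9% of all tested genes that were higher. The median log2 difference (KO minus WT) was 1.47. KO lay above WT without overlap in 30 of 48 genes and below it in 1 (share over all genes not given). With no filter 27 of 48 genes were called, DESeq2 called 11 genes higher and a fit with the replicate number as a block called 18. The share of all genes called in these fits is not given. Leaving out any 1 of the 4 libraries lowered the number called (share over all genes not given). The median log2 difference then lay between 0.895 and 1.793.

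The other genotype comparisons called 0 of 46 genes in edgeR and 0 in DESeq2, each beside 0% of all tested genes. At an unadjusted p under 0.05 there were 0 genes in F naive, 1 in M naive (higher in KO) and 1 in M HDM (lower in KO), and the medians were 0.17, 0.12 and -1.06. Without M KO naive replicate 1 the M naive median was -1.39. In M HDM, KO lay below WT without overlap in 31 of 48 genes and above it in 4, and 23 of 48 were called with no filter on low counts. The share of all genes is given for neither count, so that neither is read as particular to the axoneme genes. The genotype difference of the HDM response in males called 0 of 46 in edgeR and 0 in DESeq2, beside 0% of all genes, with 0 at an unadjusted p under 0.05 and a median of -1.21 that was 0.19 without M KO naive replicate 1. With no filter 13 of 48 were called there (share over all genes not given).

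**Figure D4:**
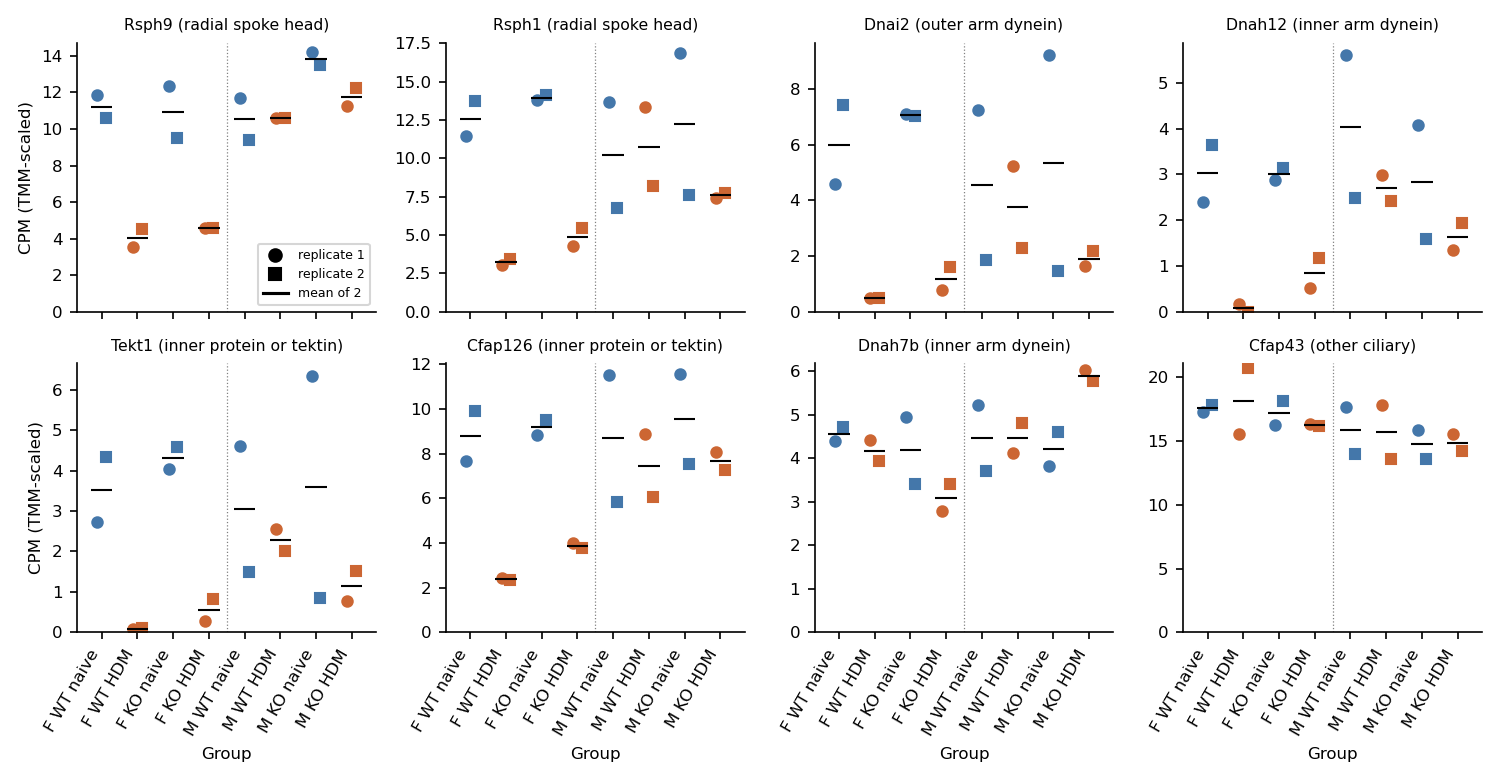
Points are CPM of 8 genes in each library (circles, replicate 1, squares, replicate 2, bars, mean of 2, blue, naive, orange, HDM) by group, females left of the dotted line. The HDM points of Rsph9, Rsph1, Dnai2, Dnah12, Tekt1 and Cfap126 lie below the naive points in both female genotypes, while Dnah7b and Cfap43 stay within 2.78 to 6.03 CPM and 13.6 to 20.7 CPM over all 16 libraries.

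Regulators of the multiciliated fate were examined beside the axoneme genes. Of 13 listed, 12 fell in F WT HDM and 3 in F KO HDM, beside 22.4% and 5.77% of all tested genes. The medians were -3.45 and -0.86 on the log2 scale. Gmnc, Ccno, Trp73, Rfx2 and Rfx3 are named here after their values were seen. Gmnc stood at 2.22 and 2.47 CPM in F WT naive and 0.0416 and 0 in F WT HDM, 2.05 and 1.43 in F KO naive and 0.363 and 0.358 in F KO HDM. In F WT it changed by -6.49 ± 0.59 (SE, adjusted p = 9.24e-06), and Ccno, which drives centriole amplification, changed by -4.64 ± 0.74 (SE, adjusted p = 0.000439). Trp73, a master regulator upstream of Foxj1, stood at 5.70 and 5.17 CPM in F WT naive and 0.374 and 0.332 in F WT HDM, 5.61 and 5.54 in F KO naive and 3.75 and 3.40 in F KO HDM and changed by -3.92 ± 0.36 (SE, adjusted p = 8.88e-06) in F WT.

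Foxj1 was the regulator that was not called in F WT. It stood at 69.5 and 89.4 CPM in F WT naive and 79.1 and 86.6 in F WT HDM, 76.7 and 90.3 in F KO naive and 44.8 and 47.0 in F KO HDM. In males Foxj1 stood at 97.5 and 46.6 CPM in M WT naive, 96.4 and 55.7 in M WT HDM, 97.3 and 53.1 in M KO naive and 48.4 and 46.8 in M KO HDM. The F WT change was 0.06 ± 0.34 (SE, adjusted p = 0.908) and the F KO change was -0.86 ± 0.35 (SE, adjusted p = 0.145). In the 14 other libraries, Foxj1 at 69.5 to 97.5 CPM went with a summed axoneme level of 151 to 251 CPM, and Foxj1 at 44.8 to 55.7 CPM with 66.9 to 110 CPM. In the F WT HDM libraries Foxj1 at 79.1 and 86.6 CPM went with 49.5 and 56.9 CPM.

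The X-box factors Rfx2 and Rfx3 fell by less than 1 on the log2 scale in F WT. Rfx2 stood at 11.6 and 13.0 CPM in F WT naive and 9.2 and 8.15 in F WT HDM, 12.5 and 14.2 in F KO naive and 12.0 and 14.4 in F KO HDM, a change of -0.50 ± 0.18 (SE, adjusted p = 0.0428) in F WT. Rfx3 stood at 12.8 and 12.4 CPM in F WT naive and 8.24 and 5.21 in F WT HDM, 13.6 and 10.6 in F KO naive and 10.4 and 12.8 in F KO HDM, a change of -0.90 ± 0.21 (SE, adjusted p = 0.00481) in F WT. E2f4 and E2f5, cell cycle factors with a role in centriole amplification and, with Foxj1, the highest mean CPM of the regulators, changed by -0.24 ± 0.08 (SE, adjusted p = 0.0367) and -0.52 ± 0.13 (SE, adjusted p = 0.0062).

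Of 44 tested genes in a list of other motile cilia genes, 29 fell in F WT HDM (median -1.80), beside 22.4% of all tested genes. In F KO HDM 10 of the list fell (median -1.23), beside 5.77%. The 3 with the highest mean CPM were not called in F WT. These were Gas8, a nexin link component (-0.19), and Dnaaf5 and Dnal1, an assembly factor and a light chain (-0.08 and -0.07, log2 fold change). Intraflagellar transport and BBSome genes, which build both motile and primary cilia, changed less, with a median of -0.43 in F WT. There 22 of 35 were lower, beside 22.4% of all tested genes, and 2 higher (share over all genes not given). In F KO 6 were lower, beside 5.77%. Kif3b, the motor subunit with the highest mean CPM, changed by -0.43 ± 0.07 (SE, adjusted p = 0.000638), Ift172 by -0.84 ± 0.12 (SE, adjusted p = 0.000168) and Ift52 by -0.39 ± 0.06 (SE, adjusted p = 0.00043).

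**Figure D5:**
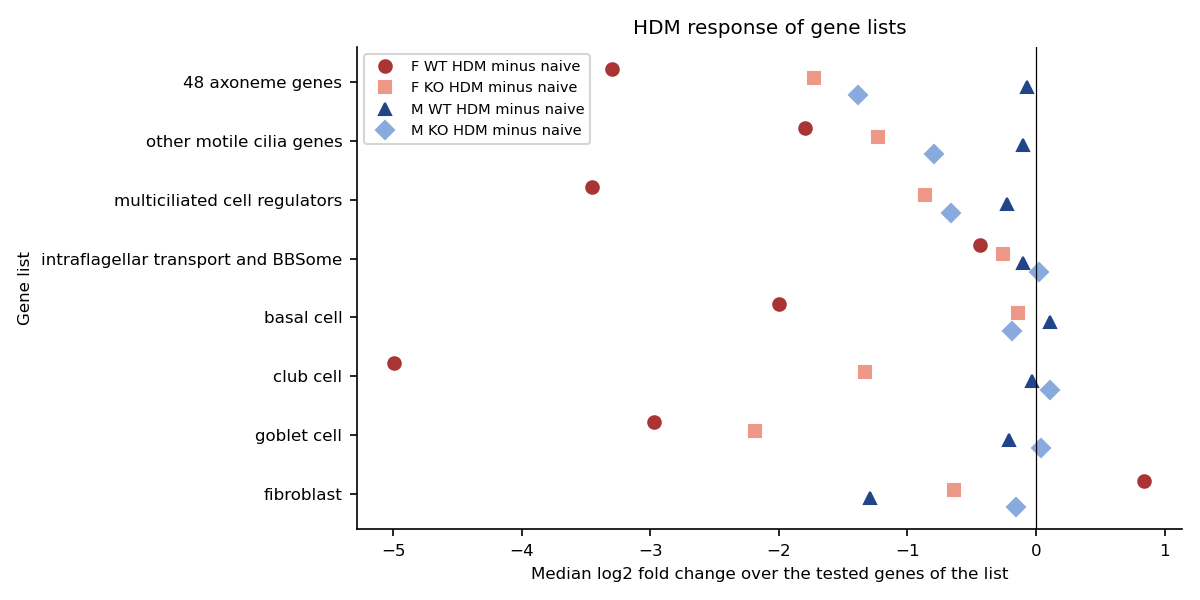
Points are the median log2 fold change (HDM minus naive, horizontal axis) over the tested genes of each list (vertical axis), by sex and genotype. For F WT the medians are -3.30 for axoneme genes, -3.45 for multiciliated cell regulators, -0.43 for intraflagellar transport and BBSome genes, -4.99 for club cell markers and 0.84 for fibroblast markers, while the M WT medians of the 8 lists drawn lie between -0.23 and 0.11, except that of fibroblast markers at -1.29.

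Of the other marker lists, 4 of 8 tested leukocyte, 3 of 9 squamous and 3 of 5 tuft cell markers fell in F WT HDM, beside 22.4% of all tested genes. Further, 1 squamous and 1 tuft cell marker rose, and the share of all genes that rose is not given. Of smooth muscle and proliferating cell markers, 0 of 5 and 0 of 8 were called. Summed smooth muscle markers nevertheless stood at 60.3 and 146 CPM in F WT naive and at 284 and 464 CPM in F WT HDM.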

How the data were processed

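RNA of 16 tracheal epithelial culture libraries was sequenced. The authors deposited 1 table of raw read counts per gene for all libraries. The submitters' processing notes name GRCm38, Trimmomatic 0.36, STAR 2.5.2b, Subread 1.5.2 with featureCounts, and DESeq2, while the annotation release, strandedness and treatment of multi-mapped reads are not given in the sources used here. Reads shared by paralogs or by genes on opposite strands may therefore be split or summed.

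Gene identifiers were matched to GENCODE M21 symbols (49056 of 49315 matched). Groups came from the sample titles. Low counts were filtered with filterByExpr, libraries were scaled by TMM, and 8 group means were fitted to all 16 libraries with edgeR 4.0.16 (quasi-likelihood, R 4.3.3). Over 15993 genes, 16 comparisons were tested, each adjusted by Benjamini-Hochberg, with a threshold of 0.05. Each gene is given as CPM in every library. Where a group held 0 counts, a fold was bounded against a floor of 3 counts over the group, and with 1 to 3 counts an exact counting interval was computed. Floors and intervals cover counting error only. Library totals of 21860698 to 43442188 counts set the precision of low genes. Alternatives were DESeq2 1.42.0, other scalings and filters, fitting only the compared libraries, a replicate block, and leaving out single libraries. The test was checked on simulated data. Python 3.11.15, scipy 1.17.1 and matplotlib 3.10.9 were used for summaries.

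All 48 genes are accounted for. By rule, values in every library were given for the 2 tested genes with the highest mean CPM in each of 9 role classes. Also named were the 5 largest and 5 smallest changes in F WT HDM minus naive, each gene not called there, each gene called in a comparison with 5 or fewer calls, and each gene removed by the filter. The remaining genes were named to complete their class. The axoneme genes and the comparison lists were chosen with earlier results of these data known.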

Additional observations from a re-analysis of the deposited data

Results flagged for a closer look

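In WT cultures 20 of the 46 tested axoneme genes had an HDM response that differed between females and males, tested as an interaction in edgeR, beside 12.8% of all tested genes. The number called moved with single libraries and was lowest without F WT naive replicate 2 or M WT HDM replicate 1. The share of all genes called in those fits is not given. In KO cultures this number was 1 of 46, near the 1.77% of all tested genes. The gene was Rsph9, with a difference (F minus M) of -1.02 on the log2 scale, and it was not called in 7 of the 8 fits with 1 library left out.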

How the results depend on the processing

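Numbers of axoneme genes called kept within 1.5 times under library-size scaling, upper-quartile scaling and a mean CPM of at least 1. DESeq2 called 19 genes in F KO HDM minus naive, 11 in F HDM KO minus WT and 2 in the genotype difference of the response in females. With no filter (48 genes tested) the numbers were 40 in F KO and 29 in M KO for HDM minus naive, 27 in F HDM and 23 in M HDM for KO minus WT, 14 in KO HDM M minus F, 39 in WT and 8 in KO for the sex difference of the response, and 20 in females and 13 in males for its genotype difference. The cause was not tested. With only the compared libraries fitted they were 38 in F KO HDM minus naive, 10 in F HDM KO minus WT, 10 in KO HDM M minus F and 7 in the genotype difference in females. The share of all genes called under these alternatives is not given, so that the counts are not read as particular to the axoneme genes.

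The replicate number as a block gave 17 in F KO HDM minus naive, 18 in F HDM KO minus WT and 1 in M HDM KO minus WT. The deviations of same-numbered libraries correlated between -0.164 and 0.483 over the 12 pairs of groups, so that the numbers were not taken as pairing. Crossed numbers, added after seeing the data, left M KO HDM minus naive and KO naive M minus F at 0. Without both F WT libraries rich in fibroblast markers, also added later, 6 genes were called in F WT HDM minus naive and 9 in WT HDM M minus F.

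Leaving out 1 library gave 19 to 29 in F WT HDM minus naive, 1 to 2 in F KO HDM minus naive, 0 to 1 in F HDM KO minus WT, 10 to 32 in WT HDM M minus F, 1 to 2 in KO HDM M minus F, 3 to 33 and 0 to 1 in the sex difference of the response in WT and KO, and 0 to 1 in its genotype difference in females. A lone library was assumed to vary like the other groups. The median log2 difference of the axoneme genes changed sign in 9 of the 16 comparisons when 1 library was left out. Without M KO naive replicate 1 it went from -1.38 to 0.08 in M KO HDM minus naive, from 0.12 to -1.39 in M naive KO minus WT and from -1.21 to 0.19 in the genotype difference of the response in males. Without M KO naive replicate 2 it went from -0.26 to 0.39 in KO naive M minus F. No called change of a single named gene turned its direction. Among genes named singly, 942 values kept their call and 308 lost it.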
